A study of Mus musculus with 13 samples.

Results

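The presumptive intervertebral disc (IVD) of mouse embryos that had lost Tgfbr2 in the axial skeleton was compared with that of control embryos on 7 arrays, 4 of mutant IVD and 3 of control IVD, out of 13 in the series. The other 6 arrays held vertebrae of the same genotypes and enter here only where a difference between tissues is tested. The 7 arrays were taken by their labels and all 45037 probe sets other than the array's own controls were used. Control embryos were Cre-;Tgfbr2lox/wt and therefore also carried a floxed allele, and mutant embryos were Cre+;Tgfbr2lox/lox, with Cre driven by the Col2a promoter. The floxed segment is exon 2 of Tgfbr2, which encodes the type II receptor for TGF-β. Embryos were collected at E13.5, and presumptive IVD of the lumbar region was cut from frozen sections by laser. Per the study's methods it was mostly presumptive annulus fibrosus with little notochord or nucleus pulposus, and each array held its own amplified sample. The sources do not say which lumbar segments went into which sample, and deletion was driven only in cells in which the Col2a promoter had been active.

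TGF-β ligands bind the receptor encoded by Tgfbr2, which recruits and activates a type I receptor. That receptor phosphorylates Smad2 and Smad3, which enter the nucleus with Smad4 and act on transcription. The annulus fibrosus forms from sclerotome, the same mesenchyme that forms vertebral cartilage, and consists of fibrous tissue rich in collagens and small proteoglycans. Genes of the posterior Hox groups mark lumbar and sacral levels of the trunk in the embryo.

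The deposited values are log2 signals from which the median of the probe set across all 13 arrays had been subtracted. They show how arrays differ and not how strongly a gene is expressed, and every value below is on this centred log2 scale. In a captured tissue, fewer cells of a type and less RNA per cell cannot be told apart.

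The array labelled mutant IVD 3 stood apart from the other disc arrays. Gdf5, a BMP family ligand of developing joints, was 2.01, 3.23 and 2.82 in the 3 control IVD arrays and 2.58, 2.45, -1.07 and 0.76 in mutant IVD 1 to 4, against a range of -0.61 to 0 for vertebrae of controls. Matn1, found in cartilage matrix, was -3.71, -2.57 and -2.23 in control IVD and -2.62, -2.49, 0.60 and -3.69 in mutant IVD, against 0 to 1.10 in control vertebrae. Mutant IVD 3 was therefore within or beyond the range of control vertebrae for both genes. Mutant IVD 1 and 2 lay within the range of control IVD for both, and mutant IVD 4 lay between the tissues for Gdf5. Mutant IVD 3 also lay with or beyond control vertebrae for Wif1, Tgfbi and Prkg2, at -3.04, -1.11 and 0.24 in mutant IVD 3 and from 1.02 to 2.59, 1.75 to 2.40 and -2.78 to -1.72 in the other 3 mutant arrays. These 5 genes were chosen with their values known, and neither a change in the tissue nor the capture was tested as the source.

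The arrays also differed in sex and in RNA of neighbouring organs. Xist was -6.88, -6.30, 0.87 and -6.40 in mutant IVD 1 to 4 and 0.32, 1.09 and -0.00 in control IVD, and the mean of 4 Y-linked genes was 2.80, 3.02, -0.01 and 2.51 in the mutants and -0.18 to -0.05 in the controls. All control arrays and mutant IVD 3 thus had the female pattern and the other 3 mutant arrays the male pattern, so that without mutant IVD 3 sex and genotype cannot be told apart. Among the mutant vertebrae Xist was -5.83, -6.69 and 1.51 in arrays 1 to 3, so that array 3 had the female pattern there too. Whether the label of mutant IVD 3 is right was not tested. The mean of 9 liver genes reached 4.71 for control IVD 1, 2.53 for mutant IVD 3 and 3.26 for mutant IVD 4, whereas the other 4 arrays did not exceed -0.09. The neuronal mean (24 genes) reached 2.54 for mutant IVD 3 and lay from -0.71 to 0.58 elsewhere. The skeletal muscle mean (21 genes) was high for control IVD 1 (1.46) and mutant IVD 4 (1.61), whereas the others did not exceed 0.13. Tgfbr2 itself was 0.24, 0.29 and -0.11 in control IVD and 0.48, 0.33, 0.15 and 0.06 in mutant IVD. The groups overlapped, with a difference of 0.11 (SE 0.16) over 3 probe sets, and which exons these probe sets cover was not analysed here, so that they do not check the deletion.

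**Figure D1:**
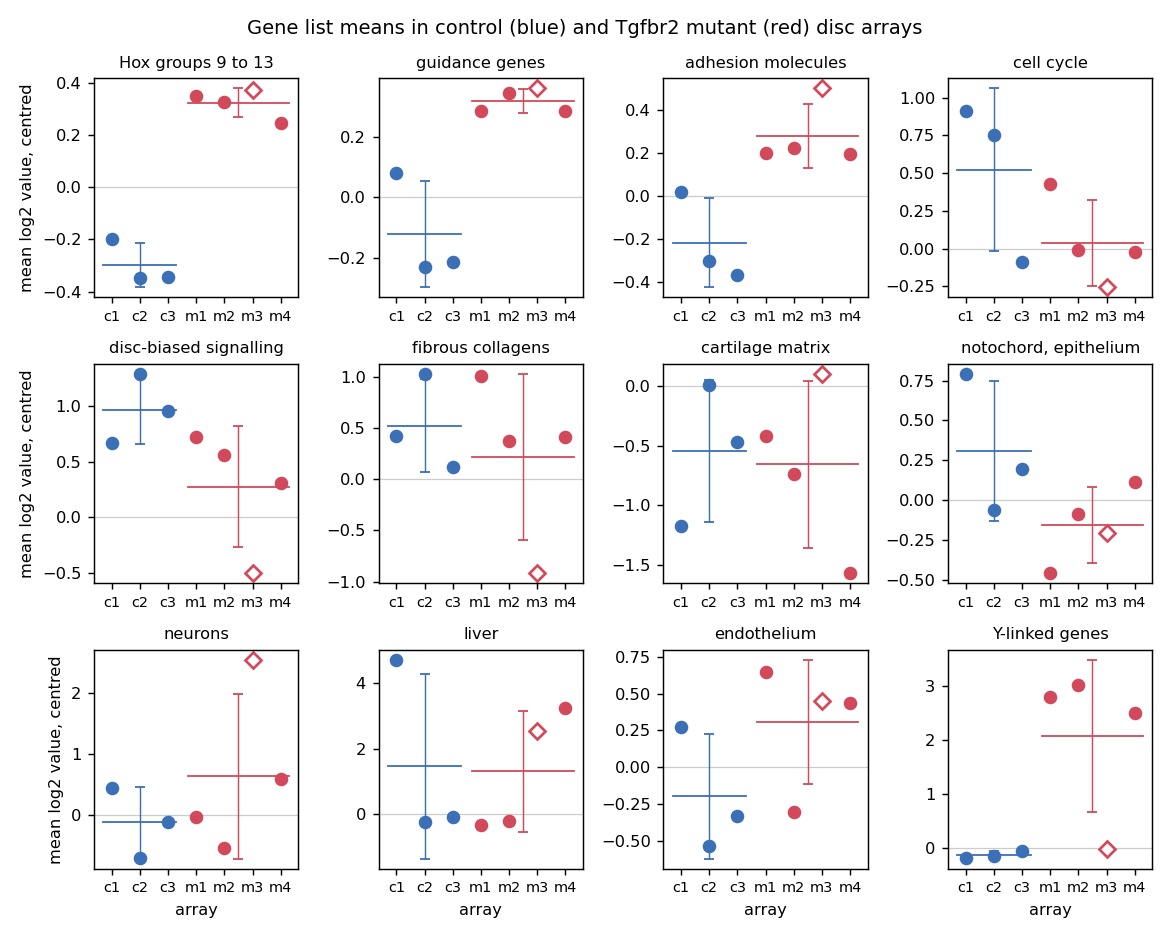
Mean centred log2 value (vertical axis) of 12 gene lists in each disc array (horizontal axis; c1 to c3 are control IVD 1 to 3, m1 to m4 mutant IVD 1 to 4). Lines are group means, bars 1 SD, and the open diamond is mutant IVD 3, which has the highest neuronal mean (2.54) and a Y-linked mean of -0.01, next to those of the controls.

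With limma on the 7 arrays, 0 probe sets had an adjusted p under 0.05 (Benjamini-Hochberg over 45037 probe sets, lowest adjusted p = 0.183), and 1710 (3.8%) had an unadjusted p under 0.05. The unequal variance test of the methods also called 0, with 1404 at an unadjusted p under 0.05. At the threshold of the study, a 2-fold or larger difference and an unadjusted p under 0.05, 211 probe sets (0.469%) were higher in mutant IVD and 87 (0.193%) were lower. Leaving out mutant IVD 3 gave 237 and 67, of which 145 and 49 were the same probe sets. That is 68.7% and 56.3% of the probe sets found on all 7 arrays and 61.2% and 73.1% of those found on 6. Without mutant IVD 3, 7 probe sets (0.0155%) passed an adjusted p of 0.05. They were 3 of Xist, 1 each of Ddx3y, Eif2s3y and Kdm5d, which are Y-linked, and 1 with no gene name whose values followed the Y-linked genes. No difference described below for a gene outside the X and Y chromosomes passed the adjusted test on all 7 arrays or on these 6. Values of a gene are the mean of its probe sets, for 18212 genes, and in limma the adjusted p on all 7 arrays was at least 0.663 for each gene and probe set named below.

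Of 363 genes in 25 lists of known roles, 32 (8.82%) were higher and 21 (5.79%) lower in mutant IVD at an unadjusted p under 0.05, against 2.48% and 1.15% of all 18212 genes. All 4 mutant arrays lay above all 3 control arrays for 26 of the 32 and below them for 7 of the 21. These genes were picked by p on the same arrays, so the separation follows largely from that choice. Over all genes, without such a choice, the shares were 3.6% and 0.95%. Members of the lists were chosen with earlier results of these data known, so their counts are a description of these arrays.

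**Figure D2:**
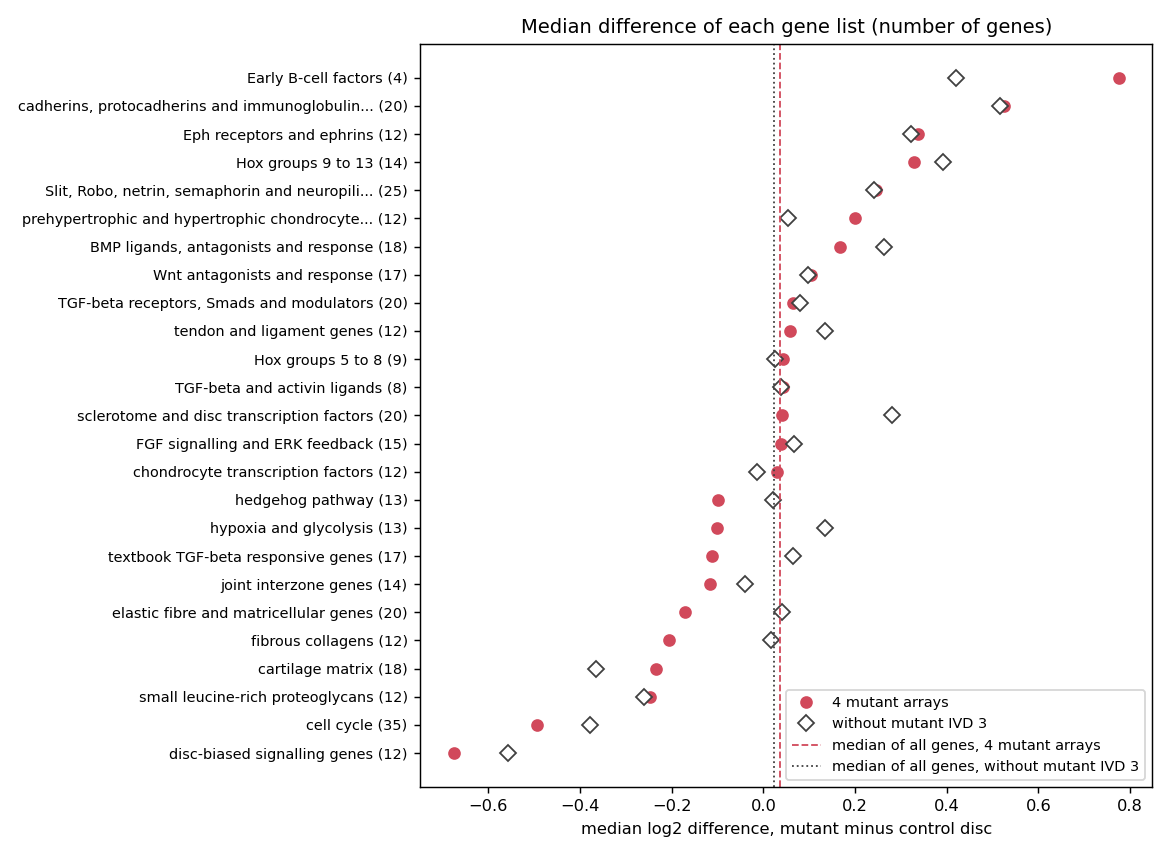
Median log2 difference, mutant minus control IVD (horizontal axis), of the genes of 25 role lists (vertical axis, number of genes in brackets), with all 4 mutant arrays (filled) and without mutant IVD 3 (open). Lines mark the median of all 18212 genes, 0.04 and 0.02, and the disc-biased signalling genes (-0.68 and -0.56) lie furthest below them.

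Hox genes of groups 9 and 10 other than Hoxb9 were higher in mutant IVD. These homeobox genes pattern the trunk along the body axis, and of 14 measured genes of groups 9 to 13, 13 had a difference above 0 (10 without mutant IVD 3), against 58.2% of all genes (55.6% without mutant IVD 3). For 7 of the 14 genes (50%) the unadjusted p was under 0.05 and no mutant array overlapped the controls, against 2.48% of all genes higher at that p and 3.6% with all mutants above. Hoxd10 was -0.64, -1.91 and -1.51 in control IVD 1 to 3 and 0.25, 0.63, 1.47 and 0.92 in mutant IVD 1 to 4. Every mutant array was above every control array, and the difference was 2.17 (SE 0.37, unadjusted p = 0.000384 and adjusted p = 0.991 in limma). Hoxa10 was -0.37, -0.68 and -0.68 in controls and 0.53, 0.78, 0.10 and 0.60 in mutants, a difference of 1.08 (SE 0.19). Hoxc10 was 0.07, -0.07 and -1.37 in controls and 1.79, 1.13, 0.87 and 0.997 in mutants, a difference of 1.65 (SE 0.38). Here too the groups were apart, for Hoxa10 with mutant IVD 3 as the lowest mutant array.

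The same order was seen in group 9 outside the Hoxb cluster. Hoxd9 was 0.00, -0.96 and -1.15 in control IVD and 1.52, 0.25, 1.001 and 0.36 in mutant IVD, a difference of 1.48 (SE 0.38). Hoxc9 was -0.58, -0.27 and -0.44 against 0.86, 0.13, 0.32 and 0.26, a difference of 0.83 (SE 0.19), and Hoxa9 differed by 0.80 and Hoxa11 by 0.55 (SE 0.23 and 0.18). Members of groups 12 and 13, Hoxd11 and Hoxb9 differed by -0.19 to 0.11. In groups 5 to 8, 5 of 9 genes had a difference above 0 (median 0.04), with 1, Hoxa5, at an unadjusted p under 0.05 (difference 0.51, SE 0.20). The mean of the 14 posterior genes was -0.35 to -0.20 in controls and 0.24 to 0.37 in mutants. Their median difference was 0.33, or 0.39 without mutant IVD 3, against 0.04 and 0.02 over all genes. Leaving out single arrays gave 0.29 to 0.44. With the 3 arrays that carried liver RNA left out, Hoxd10 differed by 2.15, Hoxc10 by 2.18 and Hoxd9 by 1.93.

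**Figure D3:**
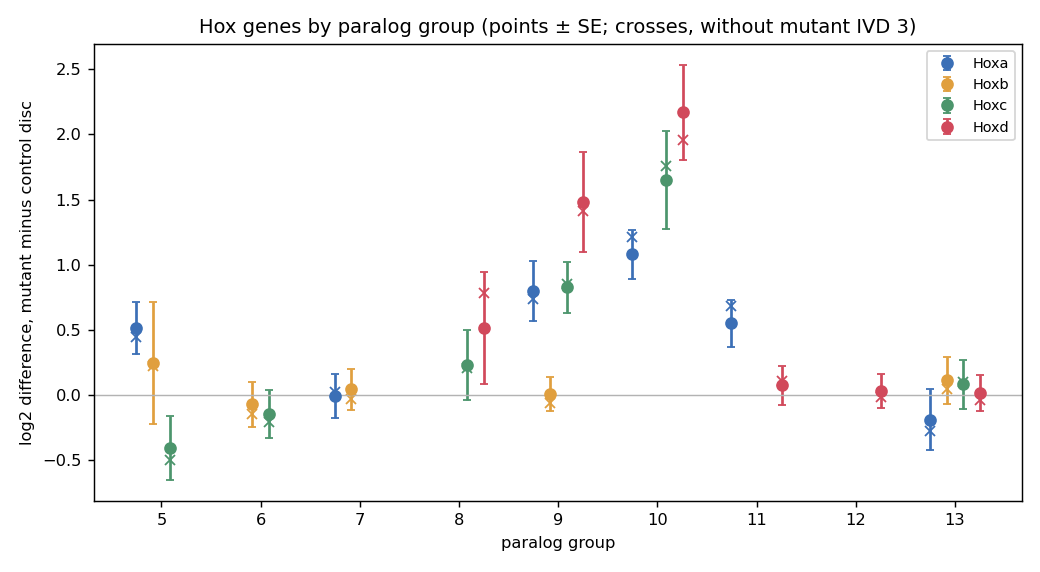
Log2 difference, mutant minus control IVD (vertical axis), of 23 Hox genes by paralog group (horizontal axis) and cluster (colour). Points are 7-array differences with bars of 1 SE, crosses the differences without mutant IVD 3, and the 3 genes of group 10 lie at 1.08, 1.65 and 2.17 whereas groups 12 and 13 lie near 0.

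Zic1 differed most among the genes of the sclerotome and disc list. It encodes a zinc finger transcription factor of dorsal neural tube and somite, and was -0.95, -1.06 and -2.62 in control IVD and 1.19, 0.18, 1.35 and 0.86 in mutant IVD. All mutant arrays were above all controls, with a difference of 2.44 (SE 0.45, unadjusted p = 0.000677 in limma) and 2.29 without mutant IVD 3. Its family members Zic2 and Zic4 differed by 0.59 (SE 0.18) and 0.47 (SE 0.19), and these groups did not overlap either. Zic2 lay at 0.51 in mutant IVD 4 and between 0.00 and 0.06 in the other mutants. Barx1, a homeobox factor, had a difference of -1.08 (SE 0.45) and overlapped between the groups.

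The 250 bases before the annotated starts of Hoxd10, Itgbl1 and Kcnt2 are shown because these genes were among the 3 that differed most in each direction in the role lists, and they differ in whether CAGAC, the core sequence bound by Smad3 and Smad4, is present. The search covered both strands (CAGAC or GTCTG, in capitals). Sequences are from RefSeq, build GRCm38.p6, all on the plus strand, at chr2:74691641-74691890 for Hoxd10, chr14:123659890-123660139 for Itgbl1 and chr1:140245468-140245717 for Kcnt2.
Hoxd10: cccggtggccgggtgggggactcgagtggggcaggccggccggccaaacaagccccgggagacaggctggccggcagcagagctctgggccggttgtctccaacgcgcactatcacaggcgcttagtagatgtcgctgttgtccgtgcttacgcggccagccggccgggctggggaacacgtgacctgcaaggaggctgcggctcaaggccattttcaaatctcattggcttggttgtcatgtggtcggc
Itgbl1: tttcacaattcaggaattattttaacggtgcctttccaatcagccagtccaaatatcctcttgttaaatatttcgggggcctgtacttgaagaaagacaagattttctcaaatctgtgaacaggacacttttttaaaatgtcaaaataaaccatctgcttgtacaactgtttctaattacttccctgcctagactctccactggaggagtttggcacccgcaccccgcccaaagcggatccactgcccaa
Kcnt2: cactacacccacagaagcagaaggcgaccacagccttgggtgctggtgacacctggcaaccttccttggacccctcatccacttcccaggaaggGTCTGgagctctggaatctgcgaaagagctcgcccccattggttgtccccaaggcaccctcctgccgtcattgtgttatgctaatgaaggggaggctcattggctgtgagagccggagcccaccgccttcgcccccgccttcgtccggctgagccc

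Kcnt2 held 1 match, at position -156 from the start, and the other 2 held none, nor did Zic1, Hoxd9 and Aspn. Of all 32851 promoter entries, 42.2% held a match in this window. The share was 38.7% of 31 entries of role-list genes that were higher and 36.4% of 22 entries of those that were lower at an unadjusted p under 0.05 (25 of 32 and 19 of 21 genes had an entry). A match is a description of the letters and does not show binding.

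Genes of cell guidance and adhesion were mostly higher in mutant IVD. The Slit, Robo, netrin, semaphorin and neuropilin families steer axons, vessels and migrating mesenchyme. Of 25 of their genes 22 had a difference above 0, against 58.2% of all genes. The median was 0.25 (0.24 without mutant IVD 3), against 0.04 (0.02) over all genes. Nrp2, a coreceptor for semaphorins and VEGF, was -0.45, -1.20 and -1.07 in control IVD and 0.26, -0.28, 0.49 and 0.31 in mutant IVD. The groups did not overlap, and the difference was 1.10 (SE 0.24). Slit2, a secreted repellent, was -0.39, -0.96 and -0.10 in controls and -0.03, 1.41, 2.01 and 0.39 in mutants, a difference of 1.43 (SE 0.48) that was 1.07 without mutant IVD 3. Plxnd1, a semaphorin receptor, and Unc5d, a netrin receptor, differed by 1.22 and 1.48 (SE 0.40 and 0.62), and each overlapped between the groups. Unc5d differed by 2.26 without control IVD 1 and by 0.96 without control IVD 3. Of 12 Eph receptors and ephrins 11 were above 0 (median 0.34), with Epha5 at 0.57 and Efna5 at 0.34 (SE 0.21 and 0.12).

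Of 20 cadherins, protocadherins and immunoglobulin adhesion molecules 18 had a difference above 0, with a median of 0.52 with and without mutant IVD 3, against 58.2% of all genes above 0. At an unadjusted p under 0.05, 7 (35%) were higher and 1 lower, against 2.48% and 1.15% of all genes. Fat3, a giant cadherin, was 0.29, -0.59 and -0.12 in control IVD and 0.69, 1.46, 0.74 and 1.27 in mutant IVD, a difference of 1.18 (SE 0.27). Ncam1 differed by 0.58 (SE 0.14), Cdh10 by 0.63 (SE 0.16) and Pcdh9 by 0.86 (SE 0.27), and in these too every mutant array was above every control. Lsamp, an immunoglobulin adhesion molecule best known from the limbic system, ran the other way. It was 0.91, 1.87 and 1.53 in controls and 0.24, 0.00, -0.34 and 0.07 in mutants, a difference of -1.44 (SE 0.24, unadjusted p = 0.000396 in limma) from 2 probe sets at -1.21 and -1.68. Several of these genes are also expressed by neurons. With the neuronal mean as a covariate Nrp2 differed by 0.92, Slit2 by 1.12, Fat3 by 1.22, Ncam1 by 0.58 and Lsamp by -1.27. Of the 24 neuronal genes, 23 were above 0 on all arrays and 13 without mutant IVD 3, with medians of 0.74 and 0.02.

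**Figure D4:**
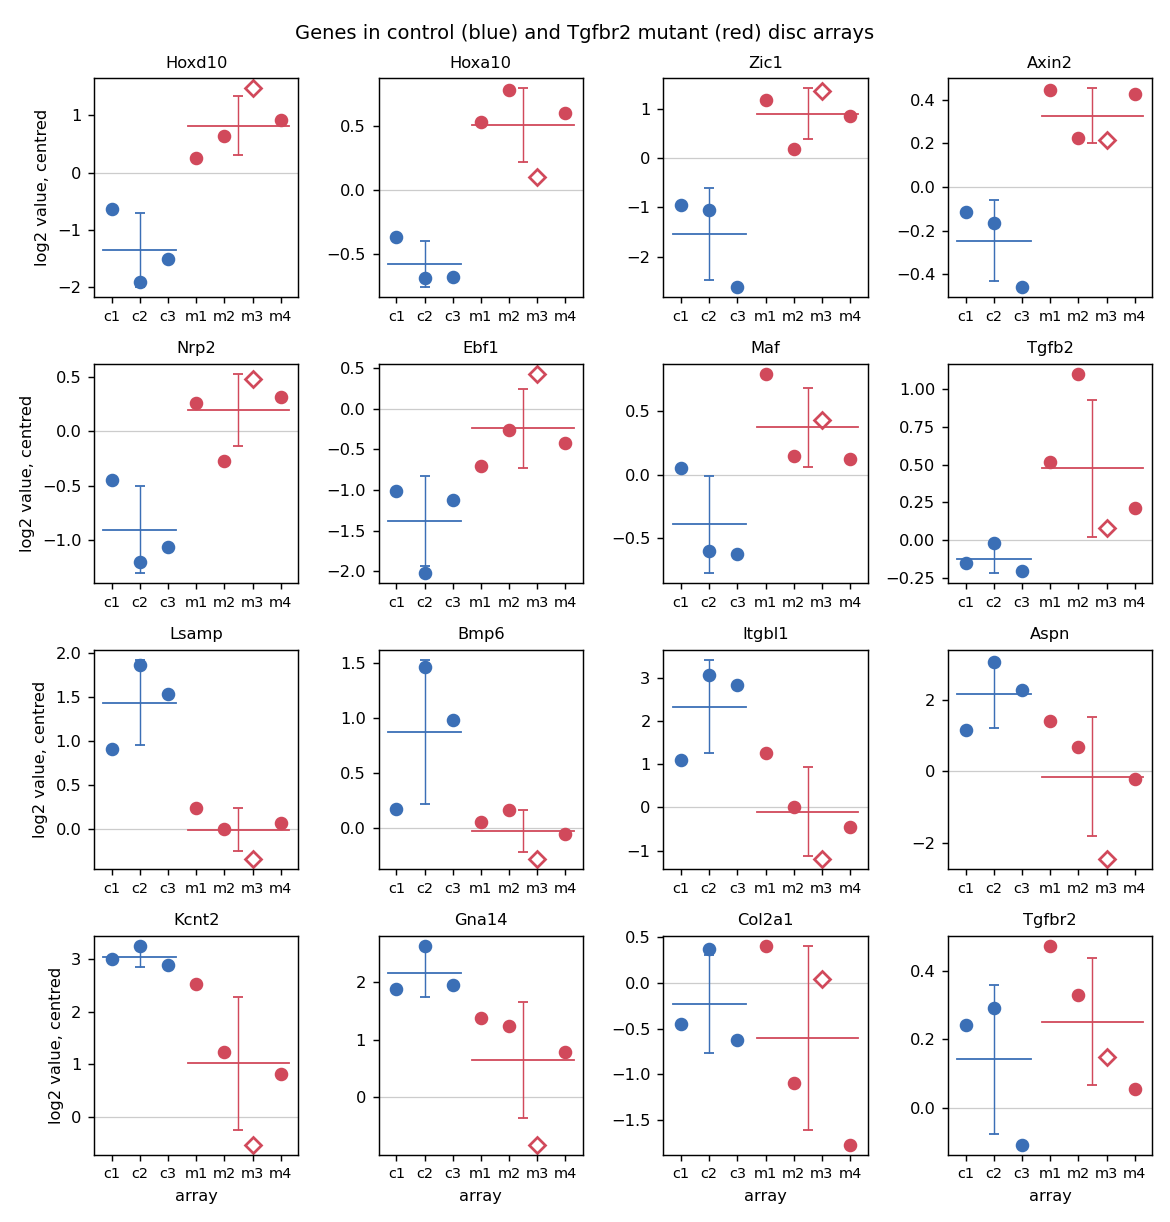
Centred log2 value (vertical axis) of 16 genes in each disc array (c1 to c3, control IVD; m1 to m4, mutant IVD), with group means as lines and 1 SD as bars. For Hoxd10, Hoxa10, Zic1, Axin2, Nrp2, Ebf1, Maf and Tgfb2 all mutant arrays lie above all controls, for Lsamp, Bmp6, Kcnt2 and Gna14 below them, and the open diamond marks mutant IVD 3.

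Ebf1, Maf and the Wnt response genes Axin2 and Lef1 were higher as well. Ebf1, an early B-cell factor that is also expressed in mesenchyme, was -1.01, -2.03 and -1.12 in control IVD and -0.70, -0.27, 0.43 and -0.43 in mutant IVD. No array overlapped, with a difference of 1.14 (SE 0.33) and 0.92 without mutant IVD 3. Its 5 probe sets differed by 0.02 to 2.04, and Ebf3 by 1.23 with overlap (SE 0.68, 0.66 without mutant IVD 3). Maf, a transcription factor of chondrocyte maturation, differed by 0.77 (SE 0.24) over 6 probe sets that ran from -0.03 to 1.14. Axin2, a feedback inhibitor and standard readout of Wnt signalling, was -0.11, -0.17 and -0.46 in controls and 0.44, 0.22, 0.22 and 0.43 in mutants, a difference of 0.57 (SE 0.14). Lef1, a transcription factor of the same pathway, differed by 0.51 (SE 0.14), and neither gene overlapped between groups. Sfrp5, a secreted Wnt inhibitor, was -0.17, 1.60 and 1.13 in controls and -0.27, -0.52, -0.01 and -0.07 in mutants, and control IVD 1 lay within the range of the mutants (difference -1.07, SE 0.39). Without control IVD 2 the Sfrp5 difference was -0.70. Over the 17 genes of the Wnt list 10 were above 0, a share close to the 58.2% of all genes, with a median of 0.10.

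Ligands of the TGF-β family had a median difference near that of all genes, and single members differed in sign. Tgfb2, a TGF-β ligand, was -0.15, -0.02 and -0.20 in control IVD and 0.52, 1.10, 0.08 and 0.21 in mutant IVD. Its groups did not overlap, and the difference was 0.60 (SE 0.24) or 0.73 without mutant IVD 3 and 0.39 without mutant IVD 2. Bmp6, a BMP ligand of prehypertrophic cartilage, was 0.18, 1.46 and 0.98 in controls and 0.06, 0.17, -0.28 and -0.05 in mutants, with a gap of only 0.0065 between the groups and a difference of -0.90 (SE 0.29). Bmp5 and Id3, a BMP target, differed by 0.47 and 0.89 (SE 0.18 and 0.36). Of 8 ligands of the TGF-β and activin group 5 were above 0 (median 0.04), as were 14 of 20 receptors, Smads and modulators (median 0.07), none of which had an unadjusted p under 0.05. Textbook targets of TGF-β were above 0 in 6 of 17 genes, with a median of -0.11, and in 11 of 17 without mutant IVD 3, with a median of 0.06. Over all genes 58.2% were above 0, and 55.6% without mutant IVD 3. None of the 17 textbook targets had an unadjusted p under 0.05 in either set of arrays.

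Single matrix genes were lower in mutant IVD. Itgbl1, a secreted protein with integrin-like EGF repeats, was 1.09, 3.06 and 2.84 in control IVD and 1.25, 0.00, -1.19 and -0.46 in mutant IVD. Mutant IVD 1 overlapped with control IVD 1, and the difference was -2.43 (SE 0.65), or -2.07 without mutant IVD 3. Aspn, a small leucine-rich proteoglycan that binds TGF-β, was 1.15, 3.05 and 2.29 in controls and 1.401, 0.70, -2.46 and -0.23 in mutants. Its difference of -2.31 (SE 0.88) was -1.54 without mutant IVD 3. Smoc2, a matricellular calcium-binding protein, differed by -1.32 (SE 0.40) and by -1.19 without mutant IVD 3. These 3 genes pointed the same way with and without that array.

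Among lists of matrix genes, the fibrous collagens and the elastic fibre and matricellular genes did not. Of 12 fibrous collagens 9 were below 0 with a median of -0.21, but 6 of 12 and a median of 0.02 without mutant IVD 3, and none had an unadjusted p under 0.05. Elastic fibre and matricellular genes had medians of -0.17 and 0.04 in the same order. The 12 small leucine-rich proteoglycans were below 0 in 10 genes with and without mutant IVD 3 (medians -0.25 and -0.26), and 1 of them, Aspn, had an unadjusted p under 0.05. Cartilage matrix genes were below 0 in 11 of 18, and in 16 of 18 without mutant IVD 3, against 41.8% and 44.4% of all genes (medians -0.23 and -0.37). None of the 18 had an unadjusted p under 0.05 in either set of arrays. The median ran from -0.44 to 0.15 when single arrays were left out, so its sign was not stable. The list mean was -1.18, 0.01 and -0.46 in controls and -0.41, -0.74, 0.10 and -1.57 in mutants, which overlapped. Col2a1, the main cartilage collagen, was -0.44, 0.38 and -0.63 in controls and 0.41, -1.10, 0.04 and -1.77 in mutants, and the groups overlapped (difference -0.37, SE 0.53). Acan, the main cartilage proteoglycan, and Sox9, the transcription factor that directs cartilage formation, differed by -0.07 and 0.33 (SE 0.42 and 0.18). The sign for Col2a1 turned without mutant IVD 4 and that for Acan without control IVD 2 and without mutant IVD 4.

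A list of signalling genes biased to the disc over the vertebrae in controls was lower in mutant IVD, with 10 of 12 genes below 0, against 41.8% of all genes, and a median of -0.68 (-0.56 without mutant IVD 3). These genes were chosen on the same control IVD arrays, so the direction is not independent evidence. Kcnt2, a sodium-activated potassium channel, was 2.99, 3.25 and 2.88 in controls and 2.53, 1.23, -0.54 and 0.81 in mutants, a difference of -2.03 (SE 0.61) and -1.52 without mutant IVD 3. Gna14, a G protein subunit, was 1.88, 2.63 and 1.95 in controls and 1.38, 1.24, -0.83 and 0.78 in mutants, a difference of -1.51 (SE 0.52) and -1.02 without mutant IVD 3. In both genes the groups did not overlap and mutant IVD 3 was lowest. Stc2, a secreted glycoprotein, differed by -0.46 (SE 0.14), again with no overlap. Enpp1, an enzyme that makes the mineralization inhibitor pyrophosphate, differed by -1.42 (SE 0.41) with overlap at control IVD 1.

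Cell cycle genes were mostly lower, but the groups overlapped. Of 35 genes 33 were below 0, against 41.8% of all genes, with a median of -0.49 (-0.38 without mutant IVD 3). At an unadjusted p under 0.05, 7 (20%) were lower, against 1.15% of all genes. Their mean was 0.91, 0.75 and -0.09 in control IVD and 0.43, -0.01, -0.26 and -0.02 in mutant IVD, so that control IVD 3 lay among the mutants. The median ran from -0.83 to -0.24 when single arrays were left out. Cdca5, needed for sister chromatid cohesion, and Mcm5, part of the replicative helicase, differed by -0.999 and -0.68 (SE 0.35 and 0.24), and Mcm5 by -0.45 without control IVD 1. Without mutant IVD 3, none of the 35 had an unadjusted p under 0.05, against 2.28% of all genes higher and 0.846% lower. The liver mean was 4.71, -0.24 and -0.09 in control IVD and -0.32, -0.19, 2.53 and 3.255 in mutant IVD. Without the 3 arrays that carried liver RNA, only control IVD 2 and 3 and mutant IVD 1 and 2 remained. The median of the cell cycle list was then -0.12. The part of liver RNA in the cell cycle values was not tested.

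Markers of other cells of the captured field also differed. Of 17 endothelial genes 16 were above 0 (median 0.40), against 58.2% of all genes (median 0.04). The endothelial mean was 0.27, -0.54 and -0.34 in controls and 0.65, -0.31, 0.45 and 0.44 in mutants. Aplnr, the apelin receptor, was 0.04, -1.75 and -1.09 against 1.77, -0.78, 1.75 and 1.14, with overlap at mutant IVD 2 (difference 1.90, SE 0.68). All 10 measured notochord and epithelial genes were below 0 with and without mutant IVD 3 (medians -0.38 and -0.31), against 41.8% and 44.4% of all genes. At an unadjusted p under 0.05, 3 of the 10 were lower (2 without mutant IVD 3), against 1.15% of all genes (0.846%). The list mean was 0.79, -0.06 and 0.19 in controls and -0.46, -0.08, -0.21 and 0.11 in mutants, which overlapped. Krt8, a keratin of notochord and epithelia, was 0.33, -0.01 and 0.60 in controls and -2.20, 0.07, -1.72 and -0.14 in mutants, which overlapped. Foxa2, a factor of notochord and floor plate, differed by -0.56 (SE 0.19). The part of vessel and notochord content in the disc values was not tested.

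The probe sets that the study lists as lowered or raised by TGF-β1 in cultures of sclerotome, on separate arrays, allow the disc difference to be read for genes that respond to the ligand. Only their names and directions were used, and the lists at hand hold fewer entries than the study states, so that their counts cover part of the response. The 76 probe sets lowered by TGF-β1 cover 62 named genes, and 32 of the probe sets (42.1%) were also lowered by BMP4. Of the 76 probe sets, 57 were higher in mutant IVD, with a median of 0.45 (0.38 without mutant IVD 3), against 59.6% and 0.05 over all 45037. The mean of the 76 was 0.23, -0.42 and -0.57 in control IVD and 0.47, 0.10, 0.37 and 0.04 in mutant IVD. The groups overlapped, with control IVD 1 above mutant IVD 2 and 4. Of them 15 (19.7%) were higher at an unadjusted p under 0.05 and none lower, against 2.68% and 1.12% of all probe sets, and 9 (11.8%) had all mutants above all controls, against 3.68%. Besides Maf and Ebf1 the 15 included Adra2a, an adrenergic receptor, at 0.78 (SE 0.22), and Slitrk1, a neuronal membrane protein, at 1.23 (SE 0.36). Another of the 15, Tenm2, a teneurin adhesion protein, was at 1.85 (SE 0.51) with overlap. The 4 probe sets of Tenm2 ran from 0.08 to 1.85.

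Of 141 probe sets raised by TGF-β1, 79 were lower in mutant IVD, against 40.4% of all probe sets, with a median of -0.12. Without mutant IVD 3, 55 were lower, against 42.1%, and the median was 0.07. At an unadjusted p under 0.05, 5 (3.55%) were higher and 5 (3.55%) lower on all 7 arrays, against 2.68% and 1.12% of all probe sets. Without mutant IVD 3, 10 of the 141 were higher and 5 lower. In that fit 1663 of all 45037 probe sets had such a p, in either direction. C1qtnf3, a secreted protein of cartilage, was -1.66, 0.00 and -0.76 in controls and -2.27, -4.14, -1.56 and -3.77 in mutants, a difference of -2.13 (SE 0.68) with overlap. Kcnk6, a potassium channel, and Gadd45b, a stress-response gene, differed by -1.01 and -0.78 (SE 0.33 and 0.26). Kank4 and Cilp, a matrix protein of cartilage and disc, differed by 1.08 and 0.47 (SE 0.28 and 0.16), with all mutants above all controls. For BMP4 in the same cultures the medians were 0.16 for 192 lowered probe sets and 0.09 for 200 raised ones. At an unadjusted p under 0.05, 14 of those lowered (7.29%) were higher in mutant IVD and 2 (1.04%) lower. Of those raised, 10 (5%) were higher and 4 (2%) lower, against 2.68% and 1.12% of all probe sets.

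**Figure D5:**
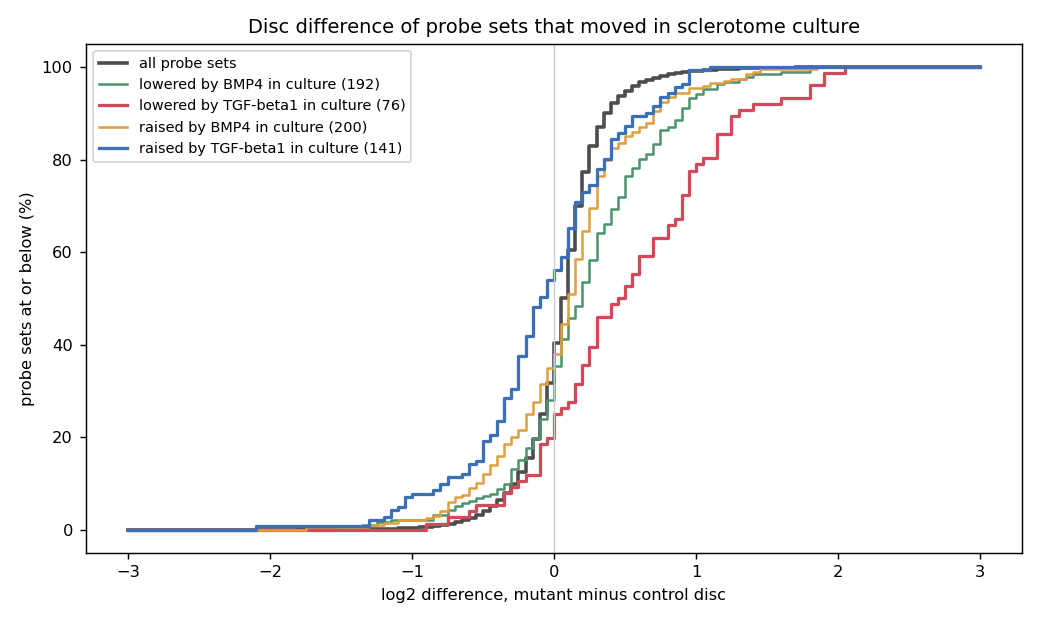
Share of probe sets (vertical axis, percent) at or below a given log2 difference, mutant minus control IVD (horizontal axis), for all 45037 probe sets and for those lowered or raised by TGF-β1 or BMP4 in sclerotome culture (number in brackets). The list lowered by TGF-β1 lies furthest to the right (median 0.45) and that raised by TGF-β1 has a median of -0.12.

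Among the 15 probe sets with 1 gene symbol and the smallest p in each direction, no mutant array overlapped a control. They were chosen by p on these same arrays, so the separation follows largely from the choice. Nsg2, a neuronal vesicle protein and member of the neuronal list, had 2 probe sets that differed by 1.19 and 1.67. Smarca4, the ATPase of a chromatin remodelling complex, had 2 at 0.56 and 1.19. Cadps2, a regulator of vesicle release, had 1, at -1.31, -1.42 and -1.14 in control IVD and 0.32, 1.505, 0.00 and 0.61 in mutant IVD (difference 1.90, SE 0.34). Among those lower in mutant IVD, Dubr, a long noncoding RNA, had 1 probe set, at 0.35, 1.02 and 0.94 in controls and -0.85, -1.01, -0.62 and -0.89 in mutants (difference -1.61, SE 0.20, adjusted p = 0.663 in limma). Mir22hg, the host gene of a microRNA, had 1 at -1.08 (SE 0.23). For Maf, Ryr3, Pgpep1, Aff2, H2aw, Pcnp, Pstpip2, Nfia, Cep128, Stc2 and Snap29 another probe set of the gene had the opposite sign. Pcnp, for example, ranged from -2.47 to 0.40, so its probe set does not stand for the gene.

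Whether a difference belonged to the disc was tested with the interaction of tissue and genotype over all 13 arrays. The vertebrae were cut next to the collected discs, so tissues can share an embryo, whereas the fit treats the arrays as independent. No probe set and no gene was called at an adjusted p under 0.05 in limma (lowest adjusted p of a gene = 1), and 257 genes (1.41%) had an unadjusted p under 0.05. Of the 32 role-list genes higher and the 21 lower at an unadjusted p under 0.05 in the disc, 6 and 5 had one for the interaction too. The interaction holds the same disc difference by which these genes were picked. Their counts therefore cannot be set against the share of all genes. In vertebrae Hoxc10 differed by -0.00 between genotypes (SE 0.44), Nrp2 by -0.21 (SE 0.31) and Bmp6 by 0.32 (SE 0.29), whereas Hoxd10 differed by 1.60 (SE 0.69), Ebf1 by 0.76 (SE 0.33) and Smoc2 by -1.30 (SE 0.49). Of the 32 genes higher in mutant IVD 24 were also above 0 in mutant vertebrae, and of the 21 lower 18 were below 0. The share of all genes above or below 0 in vertebrae is not given here, so these counts lack a background. Mutant vertebrae 1 and 2 had the male pattern and control vertebrae the female pattern. Sex was thus unequal between the genotypes in both tissues, and its part in the shared direction was not tested.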

How the data were processed

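RNA of 13 laser-captured samples was measured on Affymetrix whole-genome mouse arrays after amplification. The authors subtracted background, normalized by RMA and deposited log2 values, which are centred on the median of each probe set. How far a signal lay over background is not known, and precision is limited by the number of arrays. Centred ratios of control probe sets, taken for RNA integrity, overlapped between the groups but reached higher values in mutant IVD. They ran from -0.47 to 0.49 in control and -0.19 to 1.40 in mutant IVD for Gapdh. For Actb they ran from -1.23 to 0.33 and from -0.80 to 0.72. The part of RNA quality in the differences was not tested. After 64 control probe sets were left out, 4 mutant and 3 control IVD arrays, from separate embryos per the methods, were fitted with lmFit and eBayes of limma 3.58.1 in R 4.3.3, two-sided, with Benjamini-Hochberg adjustment. Figures were drawn in Python 3.11.15. Of the probe sets, 34945 carry 1 gene symbol, 932 several and 9126 none, and 34 were named from the study's tables. Probe sets with several symbols name no gene. Of 499 listed genes 474 were measured. Fold changes of the study were not used.

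The arrays, gene lists and named genes were chosen with earlier results of these data known. Named were Tgfbr2, sex-linked genes, Col2a1, Acan, Sox9, the 15 probe sets with 1 gene symbol and the smallest p in each direction, and in each list the genes with the smallest p or, for marker lists, the largest differences. Gdf5, Wif1, Tgfbi, Matn1, Prkg2, Hoxa9, Hoxa11 and other Hox genes were named after their values were seen. Alternatives were leaving out each array or the 3 arrays with liver transcripts, all 13 arrays, the unequal variance test, quantile normalization, robust estimation, array weights, a replicate block, Y-linked, liver and neuron means as covariates, the probe set with the largest spread per gene, and a filter on spread. The fit was tested on simulated data.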

Additional observations from a re-analysis of the deposited data

Results flagged for a closer look

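In the 4 mutant arrays, 11 of 130 genes and list means (8.46%) had 1 array whose gap to the nearest of the others, as a share of the range of the group, passed Dixon's 95% limit for 4 values. Chance marks about 1 in 20, and the groups of 3 controls were not tested. Mutant IVD 3 was the distant array in 7 of the 11, mutant IVD 4 in 3 and mutant IVD 2 in 1.

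The gap for Xist, which is also the only gene of the X inactivation list, was 0.9252 of the range, with 0.87 in mutant IVD 3 and -6.88 to -6.30 in the others. The Y-linked mean, with a gap of 0.8332, was -0.01 in mutant IVD 3 and 2.51 to 3.02 in the others. Car9, a carbonic anhydrase induced by hypoxia, had a gap of 0.9457, at -0.38 in mutant IVD 3 and 0.20 to 0.24 in the others. The tendon and ligament mean had a gap of 0.8325 (-0.36 against 0.23 to 0.35). The adhesion mean had a gap of 0.8995 (0.50 against 0.20 to 0.23), and the Schwann cell and neural crest mean one of 0.8317 (0.53 against -0.31 to -0.17).

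In mutant IVD 4 the distant values were Zic2 with a gap of 0.8925 (0.51 against 0.00 to 0.06), Tnni1, a slow muscle troponin, with a gap of 0.9525 (1.23 against -0.20 to -0.13), and the skeletal muscle mean with a gap of 0.846 (1.61 against -0.14 to 0.13). In mutant IVD 2 it was Cldn5, an endothelial tight junction protein, with a gap of 0.8642 (-0.80 against 1.42 to 1.77). The sources of these values were not tested.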

How the results depend on the processing

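Leaving out 1 of the 7 arrays gave 0 to 7 probe sets at an adjusted p under 0.05 in limma, 142 (without control IVD 3) to 446 (without control IVD 1) higher and 36 (without control IVD 2) to 279 (without control IVD 3) lower at the threshold of the study. The unequal variance test gave 103 and 30, array weights gave 320 and 294, and leaving out the 3 arrays with liver transcripts gave 522 higher. The Y-linked mean as covariate gave 155 adjusted calls, 1283 higher and 902 lower, and in this fit the genotype difference rests on mutant IVD 3 against the controls. Robust estimation, quantile normalization, all 13 arrays, the liver and neuron covariates and the filter on spread kept the counts within 1.5 times. Without mutant IVD 3, leaving out another array gave 2 to 8 adjusted calls, 147 to 481 higher and 39 to 228 lower. There the 4-group fit gave 0 adjusted calls, the unequal variance test 0, with 104 higher and 23 lower, and quantile normalization 2. These combinations and those of the interaction were added after the data were seen, and the interaction gave 0 adjusted calls in each.

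Deviations of arrays of the same number from their group means correlated at r = 0.01, 0.37 and 0.17. Arrays of different numbers ran from -0.38 to 0.34. These few correlations cannot decide whether the numbers pair the arrays, and the main fit did not pair them. With the replicate block 252 probe sets were higher and 93 lower on 7 arrays, with 0 adjusted calls, and without mutant IVD 3 it gave 0 adjusted calls and 240 lower. Mutant IVD 4 has no partner and carries no weight in the block, and Col2a1 (0.016), Acan (0.16) and Afp (-0.17) had the same reversed values with the block as without that array.

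Of 1638 differences of 91 genes 28 reversed, in 13 genes, and none of 57 probe sets did. Over single arrays left out, Tgfbr2 ran from -0.014 to 0.19, Col2a1 from -0.71 to 0.016, Acan from -0.43 to 0.36, Actc1 from -1.63 to 1.35, Tnni1 from -0.76 to 0.22, Afp from -0.17 to 2.77, Ahsg from -1.33 to 0.39, Gata1 from -1.51 to 0.40, Epb42 from -0.98 to 0.45 and Cdh1 from -1.55 to 0.17. The Y-linked covariate turned Tgfbr2 to -0.013, Col2a1 to 0.23, Acan to 0.40, Xist to 0.58, Kdm5d to -0.14, Uty to -0.041 and Epb42 to 0.21. Quantile normalization turned Acan to 0.0027, array weights turned Actc1 to 0.42, the neuron covariate turned Afp to -0.81, and leaving out the arrays with liver transcripts turned it to -0.049. Other causes were not tested. Medians moved in 25 of 581 list values, and the number of arrays limits all of them.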
